A study of Homo sapiens with 4 samples.

Results

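Megabase stretches of the genome without H3K27ac were examined in MDA-MB-231 and Hs578T, established triple-negative breast cancer (TNBC) cell lines. A stretch was an interval of at least 1 Mb between neighbouring merged peaks on chromosomes 1 to 22, where the peaks of all 4 deposited lists had been merged into 49329 regions. Of the 49307 intervals between these regions, 273 reached 1 Mb, 30 of them lay over assembly gaps or centromeric satellite and were left out, and the other 243 (0.493% of intervals) are described here. The stretches were chosen by the peak positions themselves, so their number, length and lack of peaks are given as descriptions, with no test.

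H3K27ac was measured by ChIP-seq in 4 libraries, 2 replicates per line, and peaks were called by the authors in each library. Both lines had been serum-starved for 8 h, exposed to the cytokine TWEAK at 10 ng/ml for 48 h, and kept for a further 72 h after TWEAK had been washed out, as the labels give it (a longer wash-off appears in the text of the study, and which applies was not settled here). Every library thus came from cells after washout, and with no untreated cells in the analysis, effects of TWEAK could not be measured. Each line is a single culture-adapted tumour cell population, and the replicates measure only the spread between libraries of that line.

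Acetylation of lysine 27 on histone H3 is placed by p300 and CBP at active promoters and enhancers and removed by histone deacetylases. Chromatin that lacks it over long distances is commonly held either by Polycomb, which deposits H3K27me3 at CpG islands of silent developmental genes, or by constitutive repression at the nuclear lamina, where GC-poor sequence with few genes is found. Neither form of repression was measured here.

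The list labelled MDA-MB-231 replicate 1 stood apart, with 191 autosomal peaks against 42201 to 45068 in the other lists, and it held no promoter peak at GAPDH or ACTB, which are expressed in nearly all cells. The other 3 lists held promoter peaks at these genes and at VIM, CD44 and AXL, which mark mesenchymal cells. None of the 4 lists had one at ESR1, GATA3, FOXA1 or ESRP1, markers of luminal and epithelial cells. The depth of the libraries is unknown, so a stretch is a stretch without a called peak, and weak acetylation below the calling threshold was not detectable. Copy number was not measured either, and absence of the mark and absence of the DNA cannot be told apart from peak lists.

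Together the 243 stretches held 418 Mb of known sequence, or 15.2% of the autosomes. Their lengths ran from 1.01 Mb through a median of 1.52 Mb to 6.60 Mb, whereas the median over all intervals was 15.2 kb. Of the stretches, 54 reached 2 Mb and 13 reached 3 Mb. Intervals just short of the threshold measured 993, 996 and 999.6 kb, the last of them on chromosome 6 with IMPG1 inside. The shortest stretches measured 1010, 1015 and 1016 kb and held no gene, NPIPA9 with NPIPA7, and DMRT2, respectively.

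**Figure D1:**
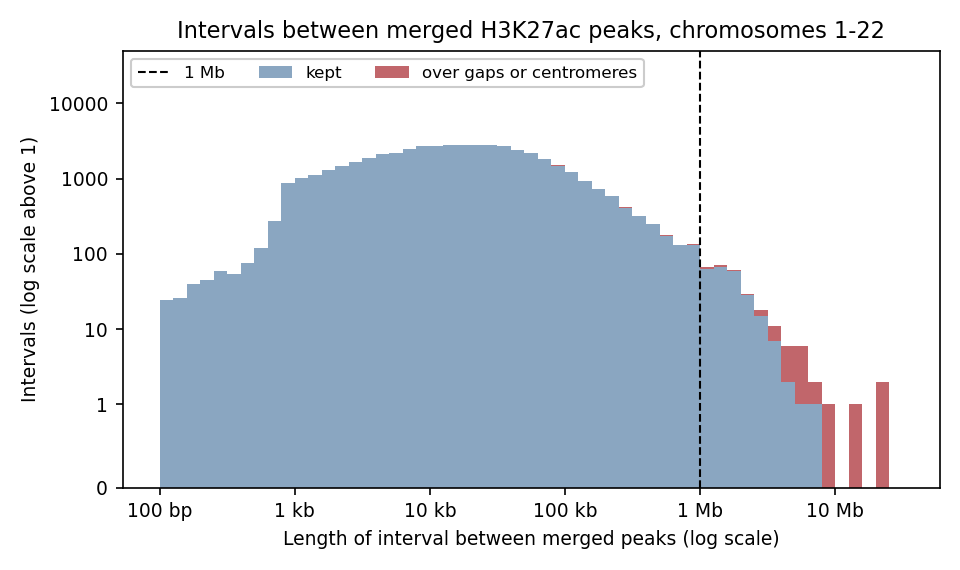
Number of intervals between neighbouring merged H3K27ac peaks (y axis, log scale above 1) by length (x axis, log scale, from 100 bp), with intervals over assembly gaps or centromeric satellite stacked in red. The 243 kept intervals to the right of the dashed 1 Mb line form the falling end of a single broad distribution with a median of 15.2 kb, and most intervals past 3 Mb lay over gaps or centromeres (18 of 31).

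Promoters inside the stretches were of contrasting kinds, which the sequences of 4 of them show (chosen after their values were seen). Each runs from 250 bases before to 50 after the start site in RefSeq's annotation of GRCh38.p14 and is printed on the strand of its gene, with CpG dinucleotides in capitals. IFNB1 (chr9:21077893-21078192, minus strand) encodes interferon beta, and TYR (chr11:89177625-89177924, plus strand) encodes tyrosinase, the enzyme of melanin synthesis. POU3F2 (chr6:98834324-98834623, plus strand) and IRX1 (chr5:3595582-3595881, plus strand) encode transcription factors of neural and embryonic development.
IFNB1: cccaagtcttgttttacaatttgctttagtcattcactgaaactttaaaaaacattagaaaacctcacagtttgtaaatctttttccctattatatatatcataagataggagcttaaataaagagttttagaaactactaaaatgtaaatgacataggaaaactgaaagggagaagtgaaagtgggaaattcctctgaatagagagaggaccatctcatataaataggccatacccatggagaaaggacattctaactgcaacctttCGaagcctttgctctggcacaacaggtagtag
TYR: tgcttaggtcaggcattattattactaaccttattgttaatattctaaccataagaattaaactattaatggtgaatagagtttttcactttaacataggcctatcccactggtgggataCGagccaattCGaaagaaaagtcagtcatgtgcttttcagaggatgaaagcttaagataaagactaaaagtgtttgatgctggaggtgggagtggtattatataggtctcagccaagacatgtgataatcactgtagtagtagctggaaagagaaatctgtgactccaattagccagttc
POU3F2: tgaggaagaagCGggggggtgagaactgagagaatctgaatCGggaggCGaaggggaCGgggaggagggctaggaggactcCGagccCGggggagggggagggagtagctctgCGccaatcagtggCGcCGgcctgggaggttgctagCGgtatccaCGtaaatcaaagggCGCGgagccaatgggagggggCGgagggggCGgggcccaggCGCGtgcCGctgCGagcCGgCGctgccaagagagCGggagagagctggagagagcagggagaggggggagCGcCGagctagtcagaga
IRX1: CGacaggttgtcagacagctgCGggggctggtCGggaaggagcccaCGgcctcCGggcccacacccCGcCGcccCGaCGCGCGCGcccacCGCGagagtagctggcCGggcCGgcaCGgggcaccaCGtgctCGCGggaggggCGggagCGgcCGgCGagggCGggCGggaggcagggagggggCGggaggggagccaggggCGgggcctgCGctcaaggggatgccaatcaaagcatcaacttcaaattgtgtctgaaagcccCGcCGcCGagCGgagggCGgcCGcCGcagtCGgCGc
The 300 bases of IFNB1 held 1 CpG and those of TYR held 2, against 24 in POU3F2 and 38 in IRX1. None of the 4 lists had a peak at these promoters, which follows from the choice of genes inside peak-free stretches. Over the 292 gene symbols inside the stretches that matched a RefSeq promoter, of 378 symbols, the median was 13.5 CpG per promoter, compared with 22 over all 14616 protein-coding symbols in that table.

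Of 19111 protein-coding genes on the autosomes in GENCODE release 44, 379 (1.98%; 95% Wilson interval 1.79 to 2.19, counting error only) lay wholly inside a stretch. The start site of the gene's canonical transcript was inside for 437 (2.29%). Genes were sparse there, with 0.907 per Mb, as compared to 2.56 per Mb in intervals of 0.1 to 1 Mb and 6.93 per Mb over the autosomes. This sparseness follows in part from the rule, since any gene with a marked promoter ends an interval. Counting only genes without a promoter peak (39.9% of all; a peak within 1 kb of the start site in any list), density was 0.904 per Mb inside and 2.77 per Mb over the autosomes, so that 378 of 7625 unmarked genes, or 4.96%, were inside a stretch. Long noncoding RNA genes were less depleted, with 1674 inside at 4.004 per Mb. Their density was 4.60 per Mb in intervals of 0.1 to 1 Mb and 6.67 per Mb over the autosomes. A further 91 microRNA genes were inside, but their total on the autosomes was not counted, so no share can be given.

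Genes were unevenly shared among the stretches. No whole protein-coding gene was found in 78, 1 gene in 85, 2 to 4 genes in 66 and at least 5 genes in 14 stretches, and these 14 held 117 genes. Of the 78, 48 overlapped part of a gene, while 30 (46.2 Mb in total) had no protein-coding base at all. The longest of these, chr21:21716736-25573616, spanned 3.86 Mb and contained 29 long noncoding RNA genes. Start sites of genes inside were at a median of 374 kb from the nearer end, with 132 at 500 kb or more and 30 at 1 Mb or more. These distances depend on the minimum length set for a stretch, and no expected distance was computed. C8orf48 on chromosome 8 was the only gene inside with its start site within 1 kb of an edge. Its start site was 93 bp from an edge, and the neighbouring region reached into its promoter window in both Hs578T lists (fold enrichment 2.78 and 2.68).

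Genes inside the stretches were long. Their median length was 57.2 kb (n = 379), against 18.4 kb for unmarked genes elsewhere (n = 7247) and 33.4 kb for genes with a promoter peak (n = 11485). Among genes inside, 40 (10.6%) exceeded 500 kb, compared with 2.07% of unmarked genes elsewhere and 1.04% of marked genes. At the other end, 97 of the 379 genes inside were shorter than 10 kb. The share of such short genes elsewhere was not counted, so this number cannot be called high or low. A length of 1 Mb was reached by 11 of the genes inside, many of which encode proteins of neurons or of cell adhesion. Among them were DPP10, SOX5, PTPRD, CSMD1, SGCZ, DCC (the netrin receptor), PTPRT, LINGO2, CDH12 and CADM2. PTPRD, a receptor tyrosine phosphatase at synapses, extended over 2.30 Mb and CSMD1 over 2.06 Mb.

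Very long genes were also examined wherever they lay, there being 67 autosomal genes of at least 1 Mb. At least 50% of the gene body fell in stretches for 32 of them, and the start site did for 28. A promoter peak was found for 21 of the 67, against 60.1% of all protein-coding genes. WWOX, an oxidoreductase gene at a common fragile site, had 99.9% of its body in a stretch although its promoter was called in 3 lists, and MACROD2 had 84.6% and DLG2 64.4% with promoters marked in 3 lists. AUTS2, RBFOX1 and CTNNA2, all unmarked at the promoter, had 99.98%, 99.85% and 99.90% of their bodies in stretches, respectively. Altogether 203 genes lay partly inside, 116 of them with a promoter peak (of all genes, 60.1% had one) and 132 with over 50% of their length in stretches.

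Members of a family often lie side by side and are then not independent, so the Wilson intervals of families cover counting error only. Among the 36 family lists examined, type I interferons had the highest share of members inside. Of 17 members, 16 (94.1%; Wilson 73.0 to 98.95) lay in 1 stretch, chr9:20756529-25094201, of 4.34 Mb. IFNB1, IFNW1, IFNA21, IFNA4 and IFNA7 were the first of them in genomic order, followed by the remaining IFNA genes and IFNE, and IFNK was outside and unmarked. These are short genes of 0.686 to 1.48 kb, and none had a CpG-rich promoter (GC of at least 50% and CpG observed over expected of at least 0.6 within 500 bp of the start site). Their observed over expected ratio ranged from 0.0238 in IFNA6 to 0.203 in IFNA1, with a median of 0.111. By contrast, IFNAR1 and IFNAR2, which encode the receptor through which all type I interferons act, both had promoter peaks.

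The interferon stretch was the richest of all, with 24 genes or 6.33% of the genes inside. Its other members were HACD4, KLHL9, MTAP, CDKN2A, CDKN2B, DMRTA1, ELAVL2 and IZUMO3. CDKN2A and CDKN2B encode inhibitors of the cyclin D kinases, and MTAP encodes an enzyme of the methionine salvage pathway that is often deleted along with them in tumours. These 3 genes had CpG-rich promoters (observed over expected 0.780, 0.830 and 0.781, respectively), and their start sites lay 1218, 1253 and 1046 kb from the nearest merged peak. Of all 12504 genes with such promoters, 9885 had a promoter peak. The peak-free length there was 4.34 Mb in MDA-MB-231 replicate 2 and in both Hs578T lists. Here especially, loss of the DNA and loss of the mark cannot be told apart.

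Genes for inhibitory neurotransmitter receptors had the next highest share of the 36 lists. Of 19 genes for GABA and glycine receptor subunits, 10 (52.6%; Wilson 31.7 to 72.7) were wholly inside, in 3 stretches, and 5 of these 10 had CpG-rich promoters. GABRG1, GABRA2 and GABRA4 shared a stretch of 2.34 Mb on chromosome 4, and GABRA2 and GABRA4 had CpG-rich promoters with observed over expected ratios of 0.747 and 0.718. Among receptors for glutamate, the main excitatory transmitter, 4 of 25 (16%) were inside, namely GRM3, GRIN3A, GRM7 and GRIN2A.

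Several adhesion molecules of the nervous system were also inside. Contactins and their CNTNAP partners had 6 of 13 members inside (46.2%; Wilson 23.2 to 70.9), and the classical cadherins 6 of 23 (26.1%; Wilson 12.5 to 46.5). The cadherins were CDH8, CDH20, CDH7, CDH12, CDH10 and CDH9, in 6 separate stretches, and all of them were 140 kb or longer. PCDH17 and PCDH10 were inside among 10 non-clustered protocadherins, whereas none of the 53 clustered protocadherins was, although 49 of these were unmarked. Of SLITRK and LRRTM genes, which organise synapses, LRRTM4 and LRRTM1 were inside of 8. CSMD1 and CSMD2 were inside of 4 genes of the CSMD and LRP1B list.

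Among POU and SOX transcription factors, regulators of lineage choice, 5 of 32 (15.6%; Wilson 6.86 to 31.8) were inside, namely SOX5, POU3F3, SOX14, POU3F2 and SOX17. All but SOX5 had CpG-rich promoters. The same combination of a CpG-rich promoter and a location in a stretch was found for some other developmental regulators, which were chosen after their values were seen. Developmental regulators were not counted as a class, and 51.5% of all genes inside had CpG-rich promoters. BCL11A and BCL11B, zinc finger factors of blood and brain development, had observed over expected ratios of 0.873 and 0.745. WNT5A and BMP2, secreted signals, had 0.827 and 1.05. IRX1, IRX2 and IRX4, homeobox factors, had 0.9745, 0.936 and 1.02, and MYCN had 0.697.

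**Figure D2:**
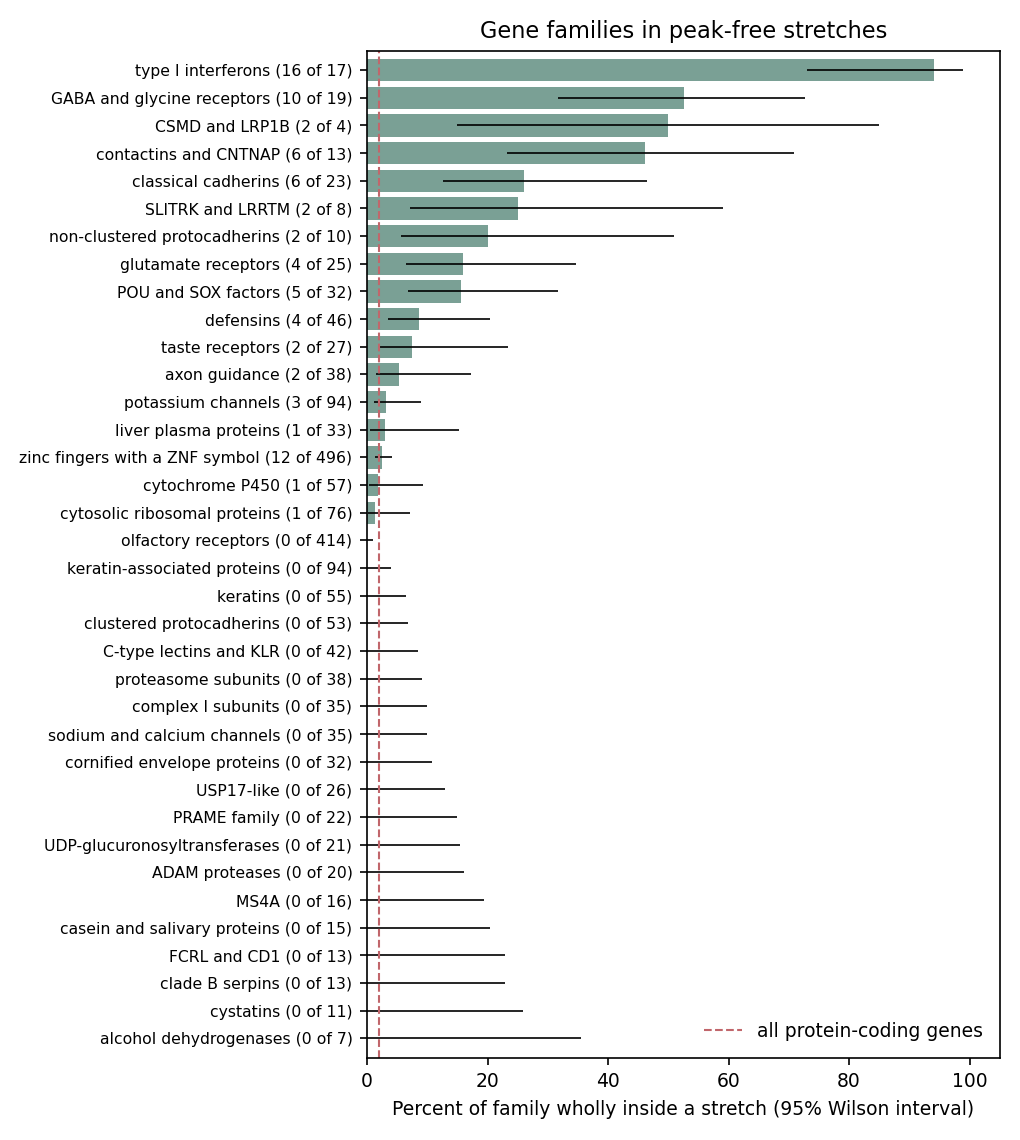
Percent of each gene family wholly inside a stretch (bars, x axis from 0) with 95% Wilson intervals (lines, counting error only) and, dashed, the 1.98% of all protein-coding genes. Type I interferons reach 94.1% and GABA and glycine receptors 52.6%, while 19 of 36 families, olfactory receptors among them, have no member inside.

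Some families of tissue-specific genes had no member inside. Olfactory receptors, the largest such family, had 0 of 414 members inside (upper Wilson limit 0.919%) although 412 of them had no promoter peak. This direction did not hold under other settings. With a minimum length of 0.5 Mb 37.2% of them (154) were inside against 5.73% of all genes, with the strongest 50% of peaks 10.9% (45) against 4.43%, and with gaps and centromeres kept 15.5% (64) against 2.80%. In the left-out intervals were 64 of the 414, 63 of them in chr11:48154947-57278026, which spans the centromere of chromosome 11. No member was inside for keratins (0 of 55), keratin-associated proteins (0 of 94), UDP-glucuronosyltransferases (0 of 21), C-type lectins with KLR genes (0 of 42), sodium and calcium channels (0 of 35) or the PRAME family (0 of 22), and between 80% and 100% of each of these families was unmarked. For families of this size a count of 0 cannot be told from the 1.98% of all genes, the upper Wilson limits being 3.93% for keratin-associated proteins, 6.53% for keratins, 8.38% for the lectin list, 9.89% for the channels, 14.9% for the PRAME family and 15.5% for UDP-glucuronosyltransferases. Defensins had 4 of 46 members inside, DEFB114, DEFB113, DEFB110 and DEFB112, with 21 more in left-out intervals. Potassium channels had 3 of 94 (KCNU1, KCNH8 and KCNN2).

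Families that cells use throughout had few members inside, and their sizes are likewise too small to set them apart from 1.98%. Cytosolic ribosomal proteins had 1 of 76 members inside, RPL10L, an intronless copy used mainly in testis, with 71 others marked. Proteasome subunits had 0 of 38 and complex I subunits 0 of 35. Zinc finger genes with a ZNF symbol, many of which encode DNA-binding repressors, had 12 of 496 inside (2.42%; Wilson 1.39 to 4.18), near the 1.98% of all genes, and 418 of them had a promoter peak. Among these 12, 10 sat side by side in 1 stretch on chromosome 19, chr19:21852159-23248846, beginning with ZNF208, ZNF257, ZNF676, ZNF729 and ZNF98.

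Promoters of genes inside were intermediate in CpG content. CpG-rich promoters made up 51.5% (195 of 379; Wilson 46.4 to 56.4) of genes inside, 33.4% (32.4 to 34.5) of unmarked genes elsewhere, 86.1% (85.4 to 86.7) of marked genes, and 65.4% of all. Median observed over expected ratios were 0.620, 0.349 and 0.790 in the same order of classes. The intervals of the 3 classes did not overlap, but genes of 1 stretch or family are not independent, and these intervals cover counting error only.

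**Figure D3:**
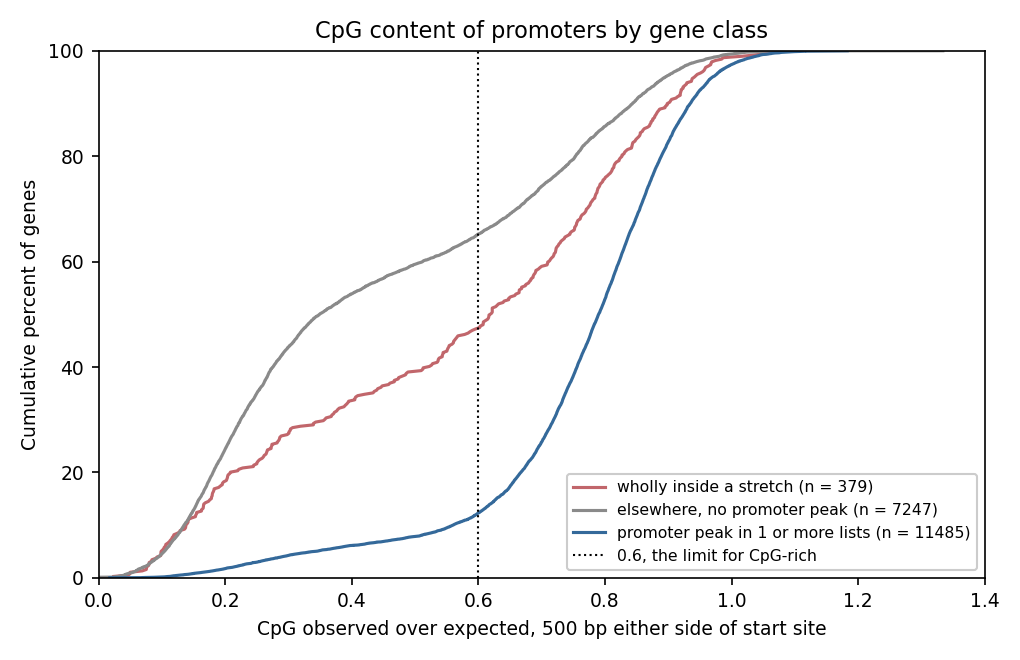
Cumulative percent of genes (y axis) by CpG observed over expected ratio within 500 bp of the start site (x axis), for genes wholly inside a stretch, unmarked genes elsewhere and genes with a promoter peak, with 0.6 dotted. The curve of the 379 genes inside (median 0.620) runs between those of unmarked genes elsewhere (0.349) and of marked genes (0.790).

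The stretches were AT-rich. Their GC content was 38.1%, compared with 40.0% in intervals of 0.1 to 1 Mb, 41.0% over the autosomes and 47.7% in merged peaks. CpG dinucleotides occurred at 7.16 per kb in the stretches, 8.60 in the shorter intervals, 10.1 over the autosomes and 22.99 in merged peaks. Single stretches varied from 33.8% to 49.4% GC with a median of 37.7%, and 49 of 243 lay above the autosomal value. Stretches with a whole gene inside had a median of 38.2%, those with part of a gene 37.2% and those without a protein-coding base 35.4%.

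**Figure D4:**
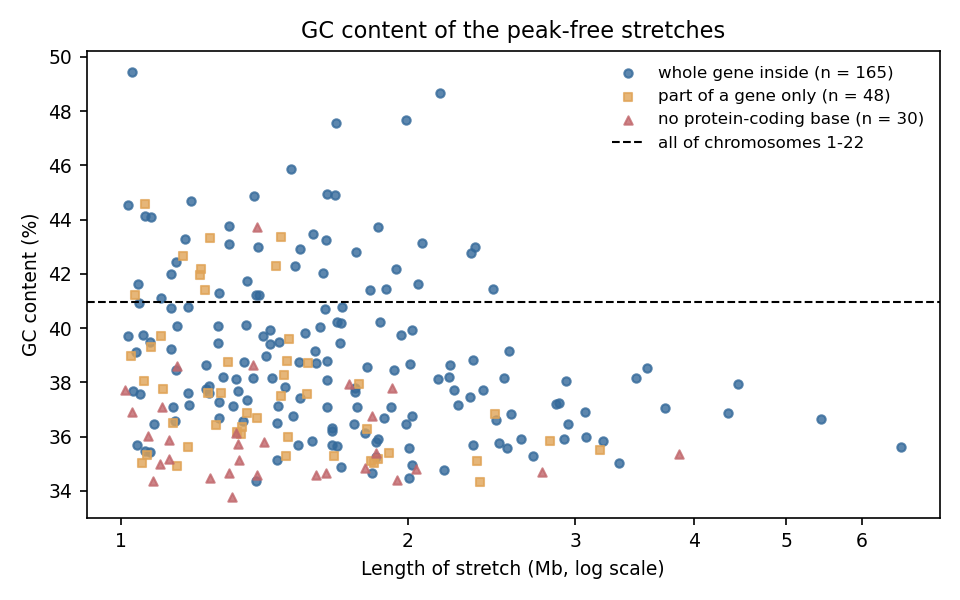
GC content (y axis, percent) against length (x axis, Mb, log scale) of the 243 stretches, by whether they hold a whole protein-coding gene, part of one, or no protein-coding base, with the autosomal GC content of 41.0% dashed. Most points, 194 of 243, lie below the dashed line, and the stretches without protein-coding bases have the lowest median, 35.4%.

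Short reads cannot be placed uniquely in duplicated sequence, so the share of 31-base words found once on chromosomes 1 to 22 and X was used to measure how far the stretches could be mapped. This share was 88.6% in the stretches, 86.3% in intervals of 0.1 to 1 Mb and 90.3% in merged peaks. Over the autosomes, where satellite was not left out, it was 83.1%. The stretches as a set were thus not poor in unique sequence. In 6 stretches the share was below 70%, and these held 30 genes. On chromosome 5, chr5:69522095-71455316 had 4.27% unique words and contained GTF2H2C, SERF1B, SMN2, SERF1A, SMN1, NAIP and GTF2H2, with SMN1 and SMN2 being near-identical copies of the gene affected in spinal muscular atrophy. On chromosome 11, chr11:88556706-90222098 had 58.3% unique words and contained TYR, NOX4 and copies of TRIM49 and TRIM64. Lack of a peak is uncertain at such copies. The 5 PRR20 genes on chromosome 13 are likewise near-identical to each other.

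The 2 longest stretches each surrounded genes of cell adhesion. In chr13:52851762-59447796 (6.60 Mb, 35.6% GC) lay OLFM4, a marker of intestinal stem cells, PRR20A to PRR20E, and PCDH17, whose start site was 1816 kb from the nearer end. The peak-free length there was 6.60 Mb in MDA-MB-231 replicate 2, and 6.76 and 6.60 Mb in the 2 Hs578T lists. CDH8 was the sole protein-coding gene wholly within chr16:59636535-65071086 (5.43 Mb). Here the peak-free length was 5.70 Mb in MDA-MB-231 replicate 2 against 5.43 Mb in both Hs578T lists, and the difference lay at CDH11, described further on.

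Next in length came chr2:121776390-126220137 (4.44 Mb) with CNTNAP5, the interferon stretch, and the chromosome 21 stretch without protein-coding bases. CBLN2 and NETO1, both of synapses, lay in chr18:70423638-74147842 (3.72 Mb), CSMD1 in chr8:2452551-6018164 (3.57 Mb), and RIT2, SYT4 and SETBP1 in chr18:42197005-45670136 (3.47 Mb). ADGRL3, an adhesion receptor of neurons, lay in chr4:60934635-64271699 (3.34 Mb). The tenth, chr11:23995947-27201356 (3.21 Mb), held LUZP2, ANO3, MUC15, SLC5A12, FIBIN and BBOX1.

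Other gene-rich stretches carried clusters of related genes. In chr6:49566644-51024550 were 11 genes, among them RHAG, a blood group gene of red cells, CRISP1, CRISP2 and CRISP3 of the male reproductive tract, and PGK2, a glycolytic enzyme of sperm. In chr17:33285243-34960919 were 7 genes, of which 6 were the chemokines CCL2, CCL7, CCL11, CCL8, CCL13 and CCL1, with TMEM132E. The promoter of CCL2, which attracts monocytes, had an observed over expected ratio of 0.258. Among the 7 genes in chr1:33473015-34853139 was CSMD2, which encodes a large membrane protein. The imprinted genes MAGEL2, NDN and SNRPN of the Prader-Willi region were in chr15:23566218-25437520, with 77.5% unique words.

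Every autosome held at least 2 stretches, in very unequal amounts. Chromosome 18 was highest, with 17 stretches, 31.7 Mb or 39.6% of its known bases, and 25 of its 266 protein-coding genes (9.40%). It also had the lowest density of merged peaks, 9.99 per Mb. Chromosomes 16, 11, 5, 8 and 21 followed at 22.8%, 22.7%, 21.2%, 21.0% and 20.6%, and chromosome 5 had the most stretches, 24. The lowest shares were 6.22% on chromosome 4, 6.54% on chromosome 19, 7.67% on chromosome 17 and 7.92% on chromosome 1. Chromosome 9 had 36 of 777 genes inside (4.63%), mostly through the interferon stretch.

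The share in stretches did not simply follow gene or peak density. Chromosome 4, with few genes (3.99 per Mb), was at the low end together with the gene-dense chromosome 19 (25.3 per Mb), while chromosome 13 (3.30 genes per Mb) and chromosome 18 (3.32 per Mb) had 9.80% and 39.6%. Across the 22 chromosomes Spearman's rho of the share was −0.453 with merged regions per Mb and −0.240 with genes per Mb. These are descriptions, because stretches and regions come from the same lists. Whether copy number in these lines differs between the chromosomes was not measured.

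**Figure D5:**
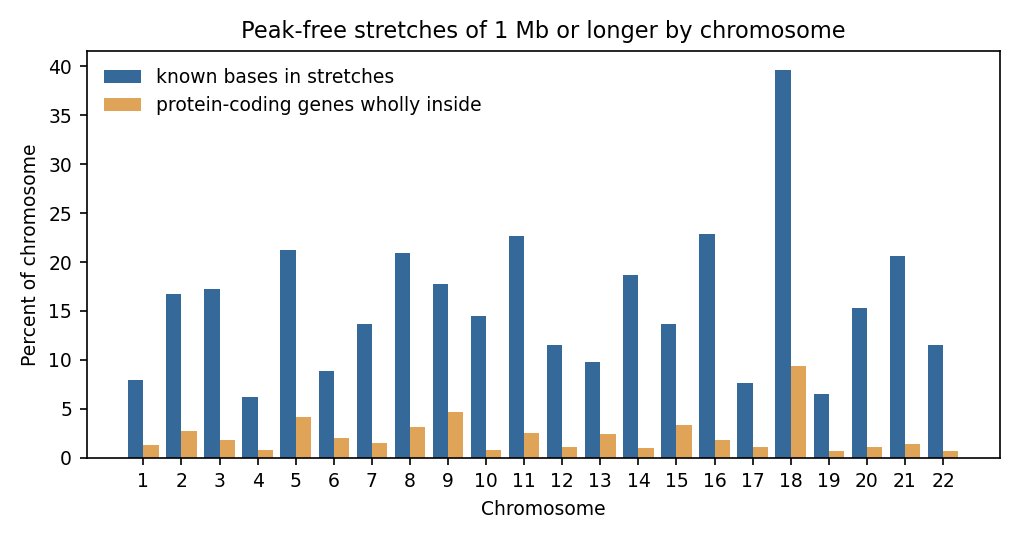
Percent of the known bases of each autosome in stretches (blue) and percent of its protein-coding genes wholly inside a stretch (orange), with the y axis from 0 and chromosomes on the x axis. Chromosome 18 has the tallest bars, 39.6% of bases and 9.40% of genes, and chromosome 4 the smallest share of bases, 6.22%.

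The stretches were next examined in each list alone, using the same rule. MDA-MB-231 replicate 2 had 273 stretches with 475.9 Mb and 476 genes, Hs578T replicate 1 had 259 with 461.6 Mb and 471 genes, and Hs578T replicate 2 had 261 with 461.8 Mb and 436 genes. The mean was 260 ± 1.41 (SD, n = 2) in Hs578T. In MDA-MB-231 it was 179 ± 133 (SD, n = 2), because replicate 1 had 85 stretches of up to 72.5 Mb. An exact permutation test of 2 libraries against 2 cannot give a two-sided p below 0.333, and no test between lines was made.

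Most stretches recurred between the lines. With an overlap of at least 50% of both, 243 of the 273 stretches of MDA-MB-231 replicate 2 (89.0%; Wilson 84.7 to 92.2) were matched in Hs578T replicate 1, and these were 93.8% of the stretches of that list. The numbers against Hs578T replicate 2 were 243 of 273 and 93.1%. Between the Hs578T replicates 245 stretches matched, 94.6% and 93.9% of the respective lists. Intervals of the shares within and between lines overlapped.

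A few long gaps differed between the lines. In 245 gaps common to both Hs578T lists, MDA-MB-231 replicate 2 had no peak in 201, 1 or 2 peaks in 42 and at least 3 in 2. One of the latter, chr1:47438252-50474874, covered AGBL4, ELAVL4 and DMRTA2 among others and had 6 peaks in MDA-MB-231 replicate 2 with a largest fold enrichment of 4.36. The other, chr5:21459811-25090565 with CDH12 and CDH10, had 3 peaks of up to 6.44. Conversely, of 273 gaps in MDA-MB-231 replicate 2, 215 had no peak in at least 1 of the Hs578T lists and 6 had at least 3 in each Hs578T list. Each of these statements rests on a single MDA-MB-231 library, since replicate 1 could not serve as a second one.

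Promoters separated the lines in few of these gaps (genes chosen after their values were seen). CDH11, which encodes the mesenchymal OB-cadherin and neighbours CDH8 on chromosome 16, had a promoter peak in both Hs578T lists, with fold enrichments of 2.97 and 3.03, and none in MDA-MB-231 replicate 2. PCDH20, a protocadherin gene on chromosome 13, had one in MDA-MB-231 replicate 2 with a fold enrichment of 4.18 and none in Hs578T, where it lay in a peak-free stretch of 1.24 Mb. GPAM, an enzyme of glycerolipid synthesis on chromosome 10, showed the latter pattern with a weaker peak of 2.75. All these peaks were below the median fold enrichment over all peaks of their list. That median was 5.11 and 4.84 in Hs578T replicates 1 and 2, and 5.61 in MDA-MB-231 replicate 2. MDA-MB-231 was again represented by replicate 2 alone.

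The regions that ended the stretches were somewhat narrower than merged regions in general. There were 475 different ones, of which 323 were called in 3 lists and 94 (19.8%) in 1 list, against 15.4% of all merged regions in 1 list. Their median width was 1216 bp against 1440 bp. Fold enrichment at an end was the largest of the list within the region, and a region between 2 stretches counted at both. The median over all single peaks of a list is therefore not a like measure, and whether the ends were weaker or stronger was not tested. The median fold enrichment at the ends and that over all single peaks were 5.38 and 5.61 in MDA-MB-231 replicate 2. They were 5.11 and 5.11 in Hs578T replicate 1, and 4.87 and 4.84 in Hs578T replicate 2. The 94 regions of 1 list comprised 40 from MDA-MB-231 replicate 2, 27 and 23 from the Hs578T replicates and 4 from MDA-MB-231 replicate 1. Over all 7585 merged regions of 1 list, the numbers were 1875, 3293 and 2292, and 125 in the same order. MDA-MB-231 replicate 2 thus supplied a larger share at the ends than overall.

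In 11 places a single merged region separated 2 stretches. These islands had a median width of 579 bp. Of the 11, 6 came from 1 list, compared with 15.4% of all merged regions. The heptamer of AP-1, an enhancer-binding factor, was present in 4 (36.4%) as TGACTCA or TGAGTCA (each the reverse complement of the other, so that both strands were covered). It was present in 46.2% of all merged regions, which were wider (median 1440 bp). Among other genes, CTNNA2, AUTS2, UNC5D and SNTG1 had an island within the gene body. The islands of CTNNA2 and UNC5D were called in 3 lists, and that of SNTG1 in MDA-MB-231 replicate 2 alone. The AUTS2 island (192 bp, fold enrichment 3.67) came only from MDA-MB-231 replicate 1, the list with 191 autosomal peaks. Parts of a pair of islands are shown, because one was strong and shared and the other was called in 1 list, on the plus strand of hg38 with the AP-1 heptamer in capitals. The first was in CTNNA2 (chr2:79718331-79718441), and the second was found in MDA-MB-231 replicate 2 alone (chr11:41578616-41578763).
CTNNA2 island: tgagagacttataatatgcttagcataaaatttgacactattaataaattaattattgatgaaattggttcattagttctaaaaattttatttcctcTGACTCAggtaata
Chromosome 11 island: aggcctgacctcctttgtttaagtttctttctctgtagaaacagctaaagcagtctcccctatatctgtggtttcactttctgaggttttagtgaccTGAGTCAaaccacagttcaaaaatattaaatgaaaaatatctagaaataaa
Unique words of 31 bases were again counted. The whole CTNNA2 island (1420 bp) had 100% unique words and fold enrichments of 6.93, 6.69 and 6.804 in the 3 large lists. On chromosome 11 the island had 100% unique words as well, and a fold enrichment of 4.60 in its 1 list. A further island on chromosome 5, of 240 bp in MDA-MB-231 replicate 2, had no unique word. Without the chromosome 9 island at chr9:10875934-10876519, called in 3 lists with fold enrichments of 4.07, 3.87 and 3.09, PTPRD and the next stretch would lie in 1 gap of 4.91 Mb.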

How the data were processed

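H3K27ac ChIP-seq was analysed in 4 libraries, MDA-MB-231 and Hs578T with 2 replicates each, grouped by sample title. The authors trimmed reads (Trimmomatic), aligned them to hg38 (Bowtie2), called peaks per library against input (MACS2) and removed blacklisted regions; deepTools is also named in the submitters' processing notes, and versions are not given in the sources used here. The deposited lists hold peak coordinates, a score (10 times −log10 q), a fold enrichment ratio, and −log10 p- and q-values; the largest q was 0.0994. Read numbers are not given, so depth is unknown and precision per peak cannot be stated.

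Here, peaks were merged across lists, book-ended peaks included. Intervals with a run of 10 kb of unknown bases, or with 10 windows of 10 kb dominated by alpha satellite periodicity, were left out, since no centromere annotation was at hand. Genes came from GENCODE release 44; a gene was inside when its whole body was. Mappability was sampled with 31-base words every 500 bp. Python 3.11.15, numpy 2.4.6, pandas 2.3.3, scipy 1.17.1, numba 0.67.0 and matplotlib 3.10.9 were used, and the interval search was tested on simulated lists. Stretches named were the 10 longest, the 10 richest in genes and those nearest 1 Mb; genes named were those inside them (up to 6 each) and up to 5 members of families with at least 3 members inside; other names were chosen after their values were seen. The members and the 36 family lists were chosen with earlier results of these data known. Alternatives left out each library, changed peak thresholds, minimum length and gap handling, and added chromosome X. Wilson intervals are 95%. Some genes and sequences are not reported here.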

Additional observations from a re-analysis of the deposited data

Results flagged for a closer look

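Chromosome X was outside the autosomal analysis and held 1381 merged H3K27ac regions. The lists held 18 and 1152 peaks there in the MDA-MB-231 replicates, and 1262 and 1237 in the Hs578T replicates.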

How the results depend on the processing

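In all, 10 results were recomputed under the alternatives, giving 112 values. Of these, 65 stayed within a set limit and 47 moved by more. The limit was the SD over lists or pairs of lists, the counting interval or, for counts and total length, 1.5 times. With 2 lists per line, leaving out 1 always stays within their SD, so those labels carry no information. The GC limit (38.120% to 38.130%) treated every base as independent and was too narrow to judge by. Even 38.14% without MDA-MB-231 replicate 2, against 38.13% in the main setting, counted as moved. Against the share of all genes, olfactory receptors changed from fewer inside (0 of 414) to more inside with the strongest 50% of peaks, a minimum of 0.5 Mb, gaps kept, or gaps cut out. Leaving out each library in turn gave 243 to 253 stretches, 422 to 435 Mb, 383 to 437 genes inside, 2.004% to 2.29% of genes, 0.896 to 1.01 genes per Mb and 38.09% to 38.17% GC. The largest shift came without Hs578T replicate 2 (437 genes). Per list, the MDA-MB-231 count was 273 without replicate 1 and 85 without replicate 2, and Hs578T gave 259 and 261.

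Regions in at least 2 lists gave 2.43% of genes and 38.11% GC. The strongest 50% of each list by score gave 373 stretches, 675 Mb, 847 genes, 4.43%, 1.25 per Mb, 38.06% GC, 45 olfactory receptors and 387 stretches per Hs578T list. Peaks with −log10 q of at least 2 gave 2.35%, 1.00 per Mb, 38.09% GC and 283 per Hs578T list. A minimum of 0.5 Mb gave 678 stretches, 723 Mb, 1096 genes, 5.73%, 1.51 per Mb, 38.66% GC and 154 olfactory receptors, and one of 2 Mb gave 54, 149 Mb, 122, 0.638%, 0.817 per Mb and 37.25%. Keeping gaps and centromeres gave 2.80%, 1.02 per Mb, 38.31% GC and 64 olfactory receptors. Leaving out any unknown base gave 38.10% GC, and adding chromosome X 2.31% and 38.06%. Counting start sites gave 2.29% and 1.05 per Mb.

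After the data were seen, cutting gaps and satellite out of intervals (2.37%, 38.14% GC and 53 olfactory receptors, or 12.8% of them) and leaving out stretches under 70% unique words (38.08% GC) were added. The absence of olfactory receptors thus depended on the length limit, the peaks used and the treatment of gaps.

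The mean share of stretches matched between large lists of different lines was 91.2%, 73.8% with an overlap of 90% and 91.1% with the replicate block, that is with same-numbered pairs alone, where the numbers pair nothing but names. Peak lists without read depth limit all statements to called peaks.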

Other observations

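By the same rule, chromosome X had 24 stretches with 45.3 Mb, or 29.2% of its known bases, and 5 intervals were left out for gaps or satellite. The longest was 4.11 Mb. Of 859 protein-coding genes on this chromosome 83 (9.66%) lay wholly inside a stretch. Cancer-testis antigen genes, which are normally silent outside the germ line, were among them, with 7 of 12 MAGEA, 5 of 11 MAGEB, 3 of 3 MAGEC, 3 of 3 CSAG and 4 of 5 SPANXN genes (families chosen after their values were seen). Several of these families consist of near-identical copies, so that the lack of a peak is uncertain at single members.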
